A study of Mus musculus with 124 samples.

Results

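The comparison described here is between mouse oocytes ovulated after an injection of human chorionic gonadotropin (hCG) and oocytes ovulated without it. It uses 12 of the 124 samples of the study: 6 libraries labelled hCG and 6 labelled Ctrl, chosen by their labels and not by their values. The study asks whether hCG given to trigger ovulation leaves changes in oocytes, blastocysts and the brain of offspring, and its other 112 samples were not analysed here. In the hCG group, females in natural estrus were injected into the abdomen with 7.5 IU of hCG, with no earlier hormone priming, and eggs were collected 14 h afterwards. In the Ctrl group, females in estrus were each kept with a vasectomised male, and eggs were collected the next morning from those with a vaginal plug. Mating and the time since ovulation therefore differed along with the hormone, and the 3 cannot be told apart. All were metaphase II eggs from the ampulla of the oviduct, stripped of cumulus cells with hyaluronidase and made into Smart-seq2 libraries, which read polyadenylated RNA from very small samples. The labels tie no age or strain to the egg donors, and do not say whether a library is 1 egg or a pool, or whether libraries are from separate females. Each p-value therefore measures the spread between these samples, which may be technical. The library names of replicate 6 in both groups end in smart_seq3 in the labels and in smart_seq2 in the deposited table.

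An ovulated egg waits at metaphase II with its spindle assembled until sperm triggers the completion of meiosis. It makes almost no new RNA: its transcripts were stored during growth and are translated, adenylated, deadenylated or destroyed in a programmed order during maturation. hCG acts on the luteinizing hormone receptor of the follicle cells around the egg and not on the egg directly.

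The libraries held 2379861 to 6924189 counts. Total counts, genes detected and the percent of counts in the most abundant genes, in mitochondrially encoded genes and in ribosomal protein genes gave adjusted p from 0.221 to 0.833 over 6 measures (two-sided exact permutation test, 6 against 6 libraries). All 17 oocyte markers had counts, summing to 22721 to 27986 CPM (each gene's count scaled to the library total) in Ctrl and 21186 to 25330 CPM in hCG libraries. Of the 16 tested as described below, Mos and Zp3 were called lower (12.5%, against 2.67% of all genes) and 0 higher. The log2 fold change was below 0 in 11 of the 16, and 8 had an unadjusted p under 0.05 in edgeR. Of 18 cumulus and granulosa markers, 10 had counts, and they summed to 36.7 to 56.2 CPM in Ctrl and 43.0 to 59.3 CPM in hCG libraries. Cyp19a1 had 17.7 ± 3.20 and 19.6 ± 2.37 CPM (log2 fold change 0.15 ± 0.20) and Nr5a2 11.6 to 28.4 and 19.7 to 33.4 CPM (0.50 ± 0.24, adjusted p = 0.263), while Amhr2, Fshr, Inha, Foxl2, Ptx3, Areg, Hsd17b1 and Lum were at 0. Of 14 blood and immune markers, 12 had counts (5.09 to 26.2 and 4.07 to 12.3 CPM), with Tyrobp and Itgam at 0. Of 8 sperm markers 7 had counts (3.71 to 6.46 and 1.39 to 8.06 CPM), with Plcz1 at 0. Of 8 oviduct and epithelial markers, 5 had counts, summing to 508 to 608 and 294 to 686 CPM. Nearly all of that was Cdh1, which eggs express too, and the ciliated cell regulator Foxj1 was at 0.

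Libraries of one group resembled each other only slightly more than those of the other group. The correlation of log2 CPM had a median of 0.951 within Ctrl (0.926 to 0.967), 0.961 within hCG (0.940 to 0.975) and 0.940 between the groups (0.920 to 0.961). On the first principal component, with 24.8% of the variance, the hCG libraries lay between 8.54 and 30.39. The Ctrl libraries lay between -41.24 and 7.40, so the groups did not overlap, with Ctrl 4 the nearest to hCG.

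**Figure D1:**
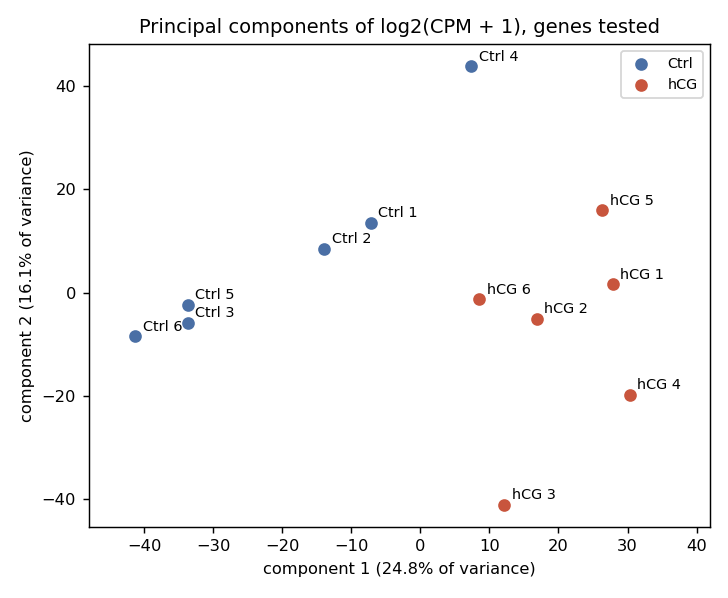
Principal components of log2(CPM + 1) over the genes tested, component 1 (24.8% of variance) against component 2 (16.1%), with 1 point for each of the 6 Ctrl (blue) and 6 hCG (red) libraries. The hCG points lie to the right of the Ctrl points on component 1, and Ctrl 4 (component 2 at 43.93) and hCG 3 (-41.09) stand apart along component 2.

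Of 9565 genes tested with edgeR's quasi-likelihood test, 127 were higher in hCG eggs (1.33%) and 255 lower (2.67%) at a Benjamini-Hochberg adjusted p under 0.05. A list of genes is read against these shares below. The lists were chosen with earlier results of these data known, so a share above these is a description and not a test. The changes were mostly small: the median size on the log2 scale was 0.91 among the higher genes and 1.11 among the lower. Only 20 of the higher and 24 of the lower genes changed by more than 2 on the log2 scale, which is 4 times in CPM. The median log2 fold change of all genes tested was 0.01. The hCG libraries all lay above the Ctrl libraries in 120 genes (1.25%) and all below in 175 (1.83%), and 209 genes (2.19%) were both called and without overlap. A lower or higher level can reflect the amount of an RNA per egg, the share of eggs that hold it or the length of its poly(A) tail. These cannot be told apart here, and tail length was not measured. CPM gives each gene's share of a library and not its amount per egg.

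**Figure D2:**
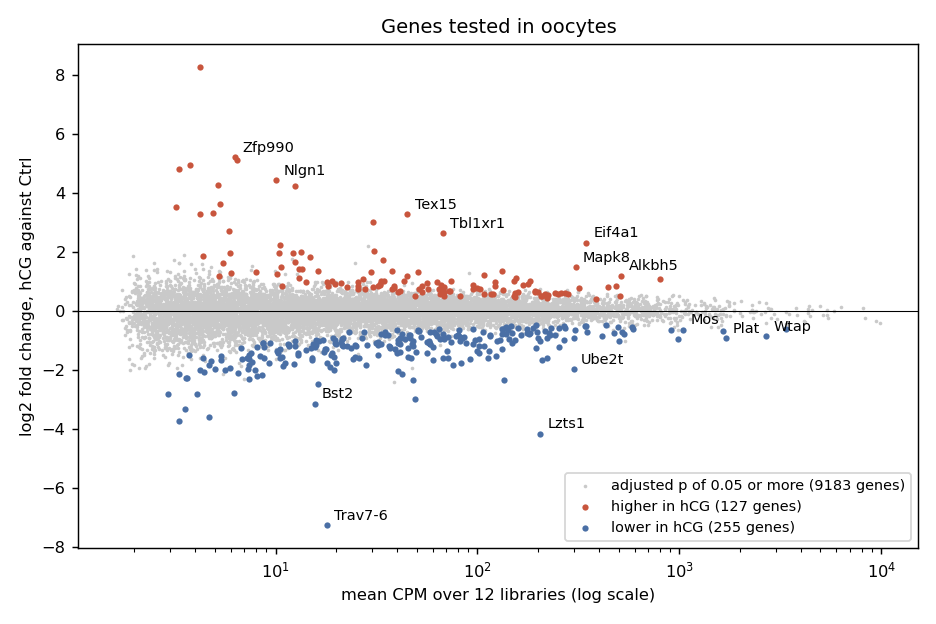
Each point is 1 of the 9565 genes tested, with its mean CPM over 12 libraries on a log axis and its log2 fold change (hCG against Ctrl) on the vertical axis. Genes higher in hCG (127, red) and lower (255, blue) at an adjusted p under 0.05 lie at all levels of expression, and Alkbh5, Wtap, Mos and Plat are among the abundant ones.

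Of the genes that mark messenger RNA with N6-methyladenosine (m6A) or remove the mark, the eraser gene Alkbh5 was higher, and Mettl14 and Wtap, of the writer complex, were lower. m6A is an internal mark on messenger RNA: a complex around the methyltransferase pair Mettl3 and Mettl14, positioned by Wtap, writes it, the demethylases Alkbh5 and Fto remove it, and YTH proteins read it. Alkbh5 (chromosome 11, 60537683 to 60558512, build GRCm38) ran from 246 to 364 CPM in Ctrl libraries (median 307) and from 635 to 832 CPM in hCG libraries (median 709). Every hCG library was above every Ctrl library. The log2 fold change was 1.21 ± 0.13 (standard error; adjusted p = 9.78e-06), and it lay between 1.14 and 1.26 when any 1 library was left out.

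Mettl14, the partner that holds the RNA for the catalytic subunit, went the other way. It ran from 49.0 to 64.3 CPM in Ctrl (median 53.2) and from 21.5 to 37.2 CPM in hCG libraries (median 29.0), again with no overlap, and fell by 0.91 ± 0.17 on the log2 scale (adjusted p = 0.00388). Wtap, the adaptor of the writer, had 2228 to 4646 CPM in Ctrl (median 3409) and 1320 to 2396 CPM in hCG libraries (median 1864). It fell by 0.85 ± 0.18 (adjusted p = 0.00836), although its groups overlapped slightly. The catalytic subunit Mettl3 was at 33.1 ± 7.89 CPM (SD, n = 6) in Ctrl and 39.3 ± 12.1 CPM in hCG, or 0.25 ± 0.22 on the log2 scale (adjusted p = 0.585). The scaffold Virma differed by 0.29 ± 0.13 (adjusted p = 0.219). The second eraser, Fto, had few reads (7.31 ± 3.68 and 4.0 ± 2.09 CPM) and a difference of -0.88 ± 0.44 (adjusted p = 0.290).

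The readers of the mark were not called. Ythdf3 was higher in all hCG libraries than in any Ctrl library (215 to 276 against 280 to 298 CPM), but by only 0.28 ± 0.11 (adjusted p = 0.167), and Ythdf2, the reader tied to RNA decay, had -0.23 ± 0.16 (adjusted p = 0.453). In all, 1 of the 17 m6A genes tested was higher and 2 lower, 5.88% and 11.8% of the list against 1.33% and 2.67% of all genes. This list too was chosen with earlier results of these data known, so its shares do not test it. The same counts of 1 and 2 were found with DESeq2, limma-voom, other size factors, no low-count filter, equal depth and without Ctrl 2 and Ctrl 4. These settings reuse the same libraries, so they do not bear on how the list was chosen. The list's median log2 fold change was -0.04, against 0.01 for all genes.

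**Figure D3:**
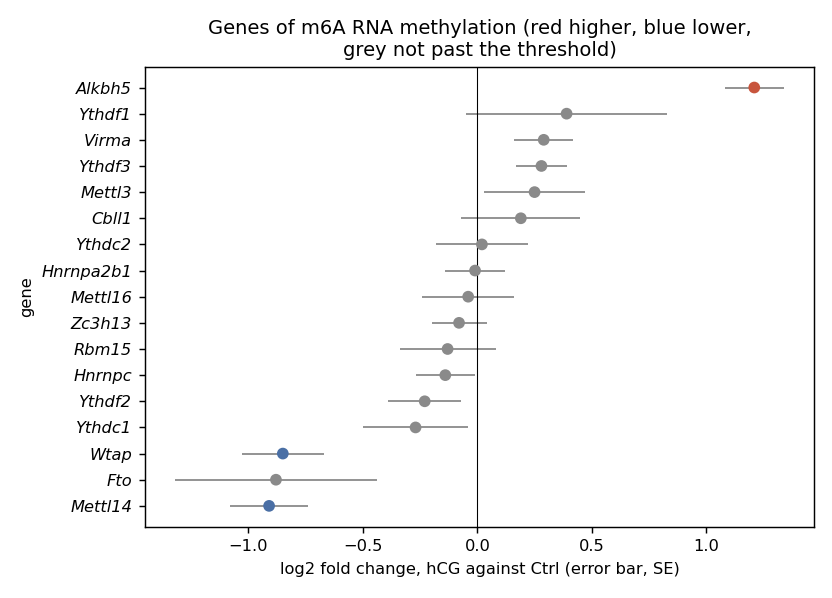
Log2 fold change of hCG against Ctrl oocytes for the 17 tested genes of m6A methylation, with the standard error as a bar. Alkbh5 (red) stands alone at 1.21 and Mettl14 (-0.91) and Wtap (-0.85) are the called members below 0 (blue), while the other 14 were not called (grey).

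The corepressor subunit Tbl1xr1 had the smallest p of all genes tested and rose. Tbl1xr1 is an exchange factor of the NCoR and SMRT corepressor complexes, which silence the targets of nuclear receptors through the deacetylase Hdac3. Its levels (chromosome 3, 22076253 to 22216594) were 16.6 to 20.6 CPM in Ctrl (median 18.3) and 98.8 to 133 CPM in hCG libraries (median 118), so the 2 ranges were far apart. It rose by 2.64 ± 0.15 on the log2 scale (adjusted p = 1.75e-09). Its close relative Tbl1x had 25 counts in all Ctrl and 21 in all hCG libraries and was too low to be tested. Of 10 tested corepressor genes Tbl1xr1 alone was called (10.0%, against 1.33% of all genes called higher). The platform protein gene Ncor1 was above Ctrl in all hCG libraries (93.2 to 117 against 120 to 150 CPM), a difference of 0.32 ± 0.13 (adjusted p = 0.167), and Hdac3 had -0.10 ± 0.23. With DESeq2, 3 members were higher.

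Among translation factors, the helicase subunit of the cap-binding complex moved most. Eif4a1, which unwinds the start of messenger RNAs for the ribosome, ran from 87.8 to 150 CPM in Ctrl (median 112) and from 416 to 739 CPM in hCG libraries (median 564). The groups were well separated, and the rise was 2.32 ± 0.16 on the log2 scale (adjusted p = 2.16e-08). The paralog Eif4a2 was at 184 ± 33.0 and 191 ± 31.5 CPM (0.05 ± 0.15) and Eif4a3, of the exon junction complex, had -0.24 ± 0.18, and neither was called. Of 49 initiation factors 1 rose and 2 fell, the start-codon factor Eif1b (-0.82 ± 0.17) and the Eif3 subunit Eif3g (-1.03 ± 0.22). These shares of 2.04% and 4.08% stand against 1.33% and 2.67% of all genes. Of 11 elongation and termination factors edgeR called 0 (2 at an unadjusted p under 0.05), and DESeq2 and limma-voom each called 1 lower. Reads of paralogs can be shared by similar sequence, so these levels depend on how the authors' counting placed them.

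Promoter sequence is of interest because the study concerns DNA methylation, which falls on CG pairs. The 300 bases around a start site (250 before, 50 after) are shown for the higher genes Tbl1xr1 and Eif4a1 and the lower genes Ube2t and Cnih4. These genes had the smallest p in each direction among named genes with a promoter in the RefSeq table (build GRCm38.p6). The windows of Tbl1xr1 and Cnih4 begin past the first base of the gene (22076253 and 181150366), so they do not surround its outermost start. Capitals mark each CG pair.
Tbl1xr1, chr3:22076402-22076701, + strand: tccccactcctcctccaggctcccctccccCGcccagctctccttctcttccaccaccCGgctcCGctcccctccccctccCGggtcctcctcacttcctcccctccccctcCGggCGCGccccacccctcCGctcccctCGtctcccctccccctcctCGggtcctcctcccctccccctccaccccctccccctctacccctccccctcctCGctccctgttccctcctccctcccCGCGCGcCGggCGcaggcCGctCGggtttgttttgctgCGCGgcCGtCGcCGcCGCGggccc
Eif4a1, chr11:69672374-69672673, - strand: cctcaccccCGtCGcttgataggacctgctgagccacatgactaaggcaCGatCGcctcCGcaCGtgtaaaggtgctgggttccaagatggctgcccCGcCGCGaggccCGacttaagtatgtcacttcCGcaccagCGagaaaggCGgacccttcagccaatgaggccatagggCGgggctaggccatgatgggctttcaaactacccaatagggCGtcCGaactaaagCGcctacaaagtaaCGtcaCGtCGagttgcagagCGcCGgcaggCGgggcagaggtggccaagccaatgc
Ube2t, chr1:134962315-134962614, + strand: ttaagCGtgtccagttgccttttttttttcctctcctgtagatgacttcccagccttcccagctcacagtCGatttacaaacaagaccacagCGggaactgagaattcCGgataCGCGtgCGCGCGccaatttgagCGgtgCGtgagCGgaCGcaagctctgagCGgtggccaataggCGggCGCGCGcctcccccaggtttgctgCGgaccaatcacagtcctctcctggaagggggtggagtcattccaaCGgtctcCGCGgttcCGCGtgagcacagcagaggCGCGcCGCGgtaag
Cnih4, chr1:181150681-181150980, + strand: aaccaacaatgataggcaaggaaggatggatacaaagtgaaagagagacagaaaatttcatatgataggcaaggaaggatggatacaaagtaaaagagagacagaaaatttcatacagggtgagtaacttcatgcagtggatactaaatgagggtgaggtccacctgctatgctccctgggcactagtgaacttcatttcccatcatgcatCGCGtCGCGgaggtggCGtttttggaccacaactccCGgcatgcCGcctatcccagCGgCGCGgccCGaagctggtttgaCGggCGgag
These windows hold 25, 23, 28 and 13 CG pairs. The CG pair reads the same on both strands. Of 7262 tested genes with a promoter in the table, 57 had none, and the median was 22 pairs. The median was 23 over the 92 higher genes with a promoter and 20 over the 199 lower ones, within the quartiles of all genes (13 to 30).

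Several large rises among named genes were in genes with few Ctrl reads. The zinc finger gene Zfp990, of a large family whose copies can share reads, rose by 5.21 ± 0.40, the phospholipase-like gene Plcl1 by 4.29 ± 0.62 and the peptidase gene Pgpep1 by 2.26 ± 0.34, each without overlap. Among genes with more reads, Mapk8, the stress kinase JNK1, had 97.9 to 240 CPM in Ctrl (median 144) and 281 to 615 CPM in hCG libraries (median 449), with no overlap, and rose by 1.5 ± 0.24 (adjusted p = 0.000936). Mbtd1, a reader of methylated histone H4 in the TIP60 acetyltransferase complex, had 348 to 726 CPM in Ctrl (median 457) and 808 to 1420 CPM in hCG libraries (median 1071). Its libraries did not overlap either (1.09 ± 0.19, adjusted p = 0.0027). Tiam2, which activates the GTPase Rac1 (1.24 ± 0.16), Ticrr, which helps to start DNA replication (1.03 ± 0.17), Bicral, of a SWI/SNF remodelling complex (1.42 ± 0.23), and the chromatin organiser Satb1 (0.63 ± 0.12) also rose without overlap.

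Polycomb genes were among the weaker rises. Suz12, a core subunit of the complex that methylates histone H3 at lysine 27, had 203 to 522 CPM in Ctrl (median 313) and 485 to 794 CPM in hCG libraries (median 609). The groups overlapped, and the log2 fold change was 0.87 ± 0.23 (adjusted p = 0.0389). Rnf2, the ubiquitin ligase of the other Polycomb complex, rose by 0.52 ± 0.13 (adjusted p = 0.0263), while the partners of Suz12, Ezh2 (0.29 ± 0.16) and Eed (0.16 ± 0.12), were not called. The H3K9 methyltransferase gene Ehmt1 fell by 0.77 ± 0.16 (adjusted p = 0.00695). Of 30 histone modifier genes, 2 rose and 1 fell (6.67% and 3.33%, against 1.33% and 2.67% of all genes). Without Ctrl 2 and Ctrl 4, the Ctrl libraries with the fewest counts, 5 rose and 1 fell. Without the low-count filter 0 rose, and at equal depth 1 rose. The call of Suz12 was lost in 8 of the 12 fits that left out 1 library (adjusted p 0.0102 to 0.105) and that of Rnf2 in 4 (0.0287 to 0.0671).

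Among DNA methylation genes, the maintenance enzyme gene fell and the others were near or short of the threshold. Dnmt1, which copies methylation to new DNA strands, had 463 to 995 CPM in Ctrl (median 644) and 307 to 503 CPM in hCG libraries (median 373). The ranges overlapped narrowly, and it fell by 0.78 ± 0.19 (adjusted p = 0.0212), a call lost without hCG 1 or hCG 4 (adjusted p up to 0.0590). Dnmt3l, cofactor of de novo methylation in growing eggs, had 16.2 ± 7.97 and 7.32 ± 2.62 CPM in the 2 groups (-1.16 ± 0.33, adjusted p = 0.0566). Tet3, the egg's oxidase of methylated cytosine, had 1855 to 2520 CPM in Ctrl (median 2175) and 2623 to 3122 CPM in hCG libraries (median 2714). The groups did not overlap, yet at 0.32 ± 0.11 it missed the threshold (adjusted p = 0.115). Dnmt3a (0.06 ± 0.16) and Uhrf1 (0.15 ± 0.13) were not called. Of the 22 genes 1 was lower (4.55%, against 2.67% of all genes) and 0 higher. Without the low-count filter 2 were higher and 2 lower.

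**Figure D4:**
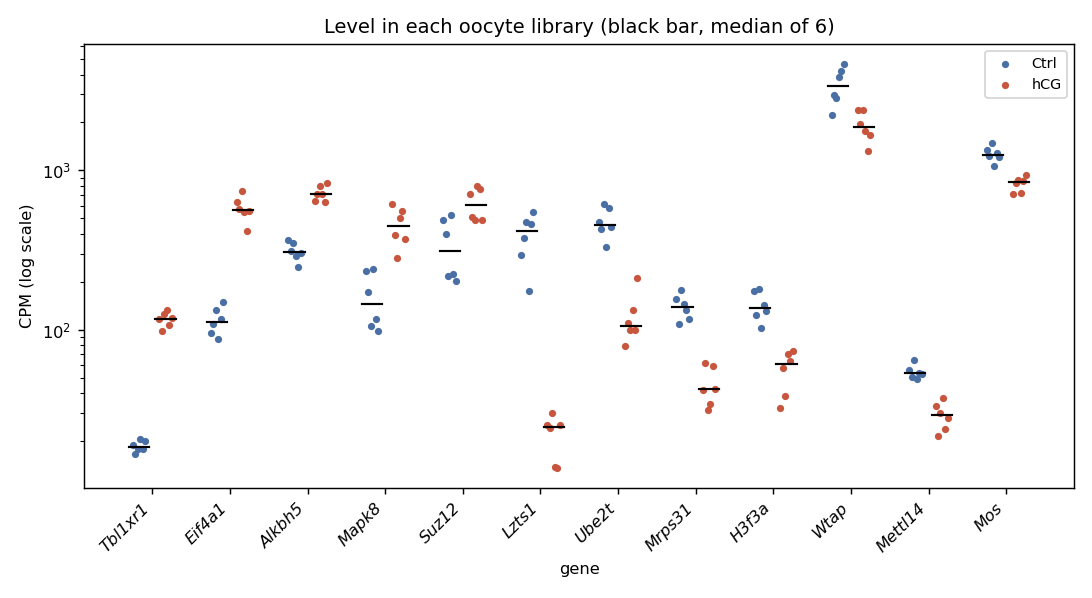
CPM on a log axis in each of the 6 Ctrl (blue) and 6 hCG (red) libraries for 12 genes, with the median as a black bar. Tbl1xr1, Eif4a1, Alkbh5 and Mapk8 are higher in every hCG library than in any Ctrl library, Lzts1, Ube2t, Mrps31, H3f3a, Mettl14 and Mos are lower in every one, and Suz12 and Wtap overlap.

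The called members of the lists of ubiquitin tagging and protein destruction, the machinery that later ends metaphase arrest, were lower. Called genes of ubiquitin outside these lists moved both ways. Ube2t, an E2 enzyme of DNA crosslink repair (chromosome 1, 134962565 to 134974180), had 329 to 615 CPM in Ctrl (median 455) and 78.6 to 211 CPM in hCG libraries (median 105). The groups were apart, and it fell by 1.97 ± 0.21 (adjusted p = 1.42e-05). Ube2c, the E2 enzyme that works with the anaphase-promoting complex, had 66.3 to 146 CPM in Ctrl (median 82.1) and 19.4 to 37.7 CPM in hCG libraries (median 29.1). It fell by 1.65 ± 0.22 (adjusted p = 0.000157), also without overlap. The complex's catalytic RING subunit gene, Anapc11, fell by 1.09 ± 0.19 (54.6 ± 9.91 to 25.8 ± 5.58 CPM, adjusted p = 0.00214). The small subunit gene Anapc13 had -1.91 ± 0.61 from few reads (adjusted p = 0.0854).

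Of 15 genes of the anaphase-promoting complex 2 fell (13.3%) and 0 rose, and of 27 E2 enzymes 3 fell (11.1%) and 0 rose. Ube2c is counted in both lists. Of all genes, 2.67% were called lower and 1.33% higher, so lower calls were the more common in general. The third called E2 gene, Ube2a, fell by 1.21 ± 0.30, but its call was lost in 6 of 12 fits without 1 library (adjusted p 0.00598 to 0.08). The ligase gene Siah1a, outside these lists, fell by 1.25 ± 0.15 (adjusted p = 3.14e-05). It had 209 to 350 CPM in Ctrl (median 275) and 93.0 to 143 CPM in hCG libraries (median 109), with no overlap. Also outside them, the ligase gene Rnf2 (0.52 ± 0.13), the cullin adaptor gene Kbtbd7 (0.81 ± 0.17) and the ubiquitin protease gene Usp28 (0.52 ± 0.13) rose. The call of Usp28 was lost in 10 of 12 fits without 1 library (up to 0.0898) and that of Rnf2 in 4. The ubiquitin-like modifier gene Nedd8, which activates cullin ligases, fell by 0.95 ± 0.18. Of 37 proteasome subunits 4 fell (10.8%, against 2.67% of all genes) and 0 rose, with a list median of -0.18. The core subunit gene Psma5 fell from 101 ± 21.1 to 39.9 ± 11.4 CPM (-1.34 ± 0.21, adjusted p = 0.000728) and Psma2 by 0.60 ± 0.13. Psmb2 fell by 0.75 ± 0.18, a call lost without Ctrl 3, hCG 1 or hCG 4 (adjusted p up to 0.0573), and Psmd5 by 0.60 ± 0.17, lost in 10 of 12 such fits (up to 0.108). The call of Psmd5 was also lost without the low-count filter and at equal depth.

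Of 29 genes that hold the metaphase II arrest, 2 fell. Mos, the kinase that starts the arresting MAP kinase cascade, had 1068 to 1481 CPM in Ctrl (median 1252) and 715 to 933 CPM in hCG libraries (median 849). No hCG library reached the Ctrl range, and it fell by 0.63 ± 0.12 (adjusted p = 0.00351). Arpp19, an inhibitor of the phosphatase that opposes Cdk1, fell by 0.57 ± 0.15 (adjusted p = 0.0389), a call lost in 7 of 12 fits without 1 library (up to 0.104). Cyclin B1 (Ccnb1, -0.17 ± 0.18), the Cdk1 inhibitor Wee2 (0.12 ± 0.11), Fbxo43, which restrains the anaphase-promoting complex (0.03 ± 0.15), and Plk1 (0.05 ± 0.19) were not called. Of 38 spindle and kinetochore genes the checkpoint gene Bub3 (-0.93 ± 0.18) and Aurkb (-1.48 ± 0.34) fell, 5.26% of the list against 2.67% of all genes. Aurkb was not called without Ctrl 3 (adjusted p = 0.0603).

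Of 24 genes of cohesin and condensin, which hold and pack chromatids, 3 rose (12.5%, against 1.33% of all genes) and 0 fell. A log2 fold change above 0 was found in 15 of the 24 (median 0.15), against 4845 of all 9565 genes. At equal depth 2 rose. Stag2, a subunit of the cohesin ring, had 39.5 to 59.0 CPM in Ctrl (median 49.7) and 67.3 to 103 CPM in hCG libraries (median 79.3), without overlap (0.74 ± 0.16, adjusted p = 0.0103). The cohesin loader gene Mau2 rose by 0.99 ± 0.22 (adjusted p = 0.0125) and the cohesin protector gene Cdca5 by 0.66 ± 0.18, the latter called in only 4 of the 12 fits without 1 library. The ring subunit genes Smc3 (-0.31 ± 0.12) and Rad21 (0.53 ± 0.22) were not called. Of 35 actin cortex genes, the tropomyosins Tpm4 (2.73 ± 0.50) and Tpm3 (0.84 ± 0.22) rose, and the actin-severing factor Cfl1 (-1.40 ± 0.25) and the myosin light chain Myl6 (-1.28 ± 0.26) fell. That is 5.71% of the list in each direction, against 1.33% higher and 2.67% lower of all genes. The call of Tpm3 was lost in 8 of the 12 fits without 1 library (up to 0.100) and at equal depth.

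Of the ring that binds the ends of decaying RNA, the subunit genes Lsm6 and Lsm4 fell. The Lsm proteins form rings that bind either the U6 splicing RNA or messenger RNAs shortened for decay. Lsm6 had 5.27 to 42.8 CPM in Ctrl (median 27.7) and 2.37 to 7.93 CPM in hCG libraries (median 4.74), and it fell by 2.46 ± 0.40 (adjusted p = 0.00124). 1 Ctrl library lay within the hCG range. Lsm4 fell by 2.26 ± 0.59 from 165 counts in all Ctrl to 37 in all hCG libraries. Its call was lost in 7 of 12 fits without 1 library (up to 0.0899) and in the fit without Ctrl 2 and Ctrl 4. Lsm5 (-0.64 ± 0.18, adjusted p = 0.0572), Lsm7 (-0.51 ± 0.16, 0.0796) and Lsm3 (-0.45 ± 0.15, 0.117) were not called, nor were Lsm1, Lsm2 and Lsm8, which also had values below 0. The deadenylation genes of maternal RNA clearance, Btg4 (5295 ± 1002 and 5420 ± 735 CPM, 0.03 ± 0.13) and the deadenylase Cnot7 (-0.02 ± 0.13), showed no called difference. Of 52 decay genes 2 fell (3.85%, against 2.67% of all genes) and 0 rose, and with DESeq2 6 fell and 1 rose.

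Most genes of the ribosomal and complex I lists had values below 0, and few were called. A planned comparison of genes with short and long proteins was not computed, so whether length has a part here was not tested. Of 61 cytosolic ribosomal protein genes 48 had a log2 fold change below 0, against 4720 of all 9565 genes, with a median of -0.44. Of the 61, 4 fell (6.56%, against 2.67% of all genes). Rps26 fell by 1.19 ± 0.24, Rps29 by 1.09 ± 0.23, Rps25 by 1.02 ± 0.24 and Rpl32 by 0.87 ± 0.20. Their share of all counts was small, 0.251% ± 0.0259 (SD, n = 6) in Ctrl and 0.216% ± 0.0251 in hCG (two-sided exact permutation test, p = 0.0368, adjusted p = 0.221). With DESeq2 9 fell. Many ribosomal protein genes have processed pseudogenes that can share their reads.

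Of 64 mitochondrial ribosomal genes 2 fell (3.12%, near the 2.67% of all genes) and 0 rose (median -0.21). Mrps31 had 109 to 178 CPM in Ctrl (median 139) and 31.5 to 62.0 CPM in hCG libraries (median 42.2), a fall of 1.63 ± 0.19 without overlap (adjusted p = 2.69e-05), and Mrpl22 fell by 1.75 ± 0.32. Of 33 genes in the list of respiratory complex I and its assembly factors, 28 were below 0 (median -0.46), yet 2 fell and 1 rose. These shares of 6.06% and 3.03% stand against 2.67% and 1.33% of all genes. Ndufa4 is in this list, although its protein is now placed in complex IV. Ndufa4 had 236 to 475 CPM in Ctrl (median 321) and 49.0 to 222 CPM in hCG libraries (median 82.9) and fell by 1.57 ± 0.29 without overlap (adjusted p = 0.00371). The call of Ndufa4 was lost without the low-count filter (adjusted p = 0.0772). The assembly factor gene Ndufaf8 fell by 0.93 ± 0.22, lost without Ctrl 5 or hCG 1 (up to 0.0540). Ndufb5 rose by 1.11 ± 0.28, lost in 6 of the 12 fits without 1 library (up to 0.0768) and without Ctrl 2 and Ctrl 4. With DESeq2 9 members of the complex I list fell, and without Ctrl 2 and Ctrl 4 8 fell.

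Among genes of the mitochondrial genome itself, the transfer RNA genes mt-Tc (-1.60 ± 0.24), mt-Tl2 (-1.38 ± 0.31) and mt-Tv (-1.23 ± 0.32) fell, 3 of 20 tested. The call of mt-Tv was lost in 7 of 12 fits without 1 library (up to 0.105). It was also lost with limma-voom, without Ctrl 2 and Ctrl 4, and without the low-count filter (adjusted p = 0.116). Of the 20, 17 were below 0, with a median of -0.35. Among messenger RNAs for respiratory subunits, mt-Co1 had -0.17 ± 0.21, mt-Cytb -0.22 ± 0.14 and mt-Nd1 -0.01 ± 0.21, none of them called. Smart-seq2 primes on poly(A), which mature transfer RNAs lack, and what these reads derive from was not tested. Vdac2, a channel of the outer mitochondrial membrane (-1.08 ± 0.19), and Mff, which recruits the fission machinery (-0.92 ± 0.18), also fell.

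**Figure D5:**
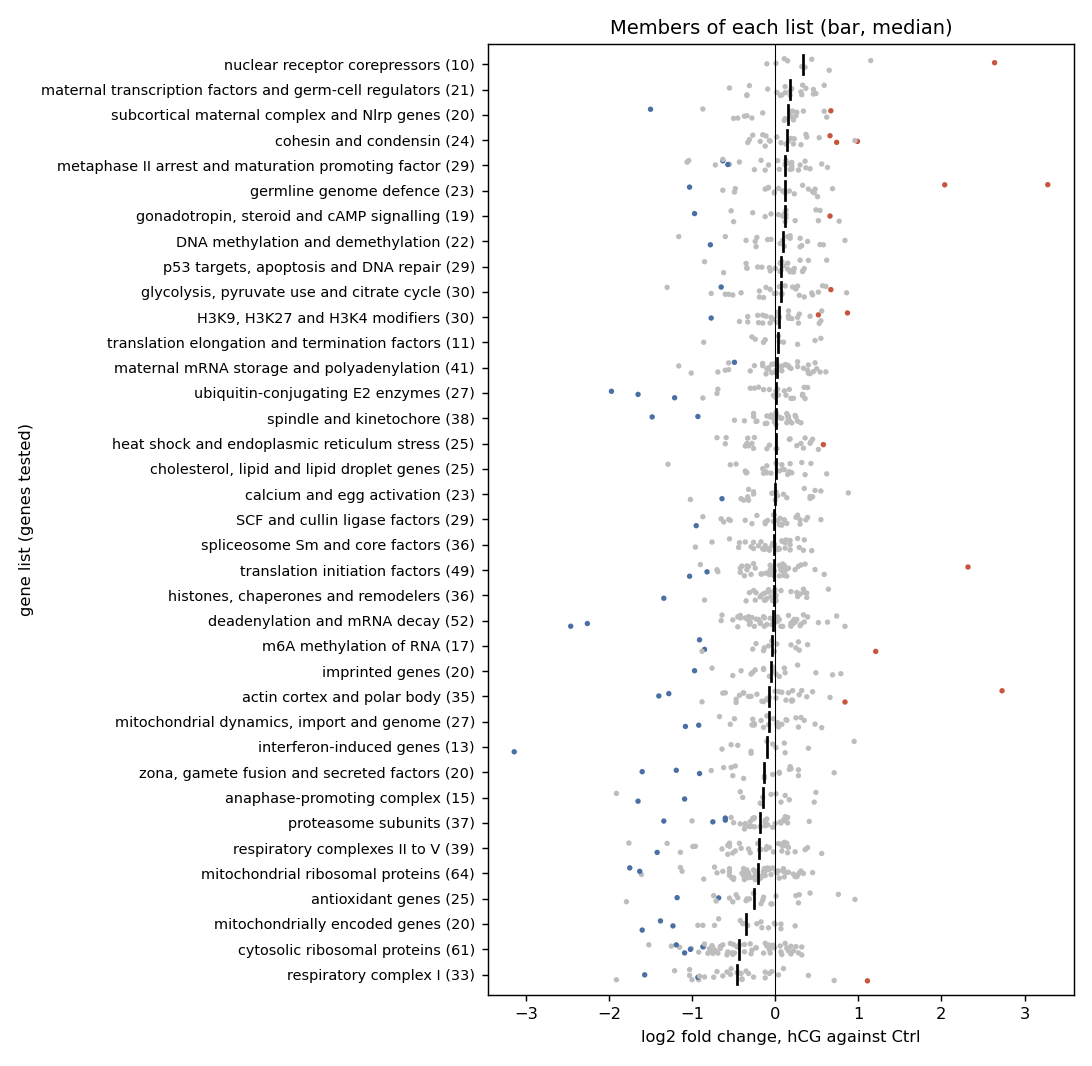
Log2 fold change of every tested member of each pathway list with at least 10 tested genes (number in parentheses), with the list's median as a black bar and members higher (red) or lower (blue) at an adjusted p under 0.05. The medians of complex I (-0.46) and ribosomal protein genes (-0.44) lie farthest below 0 and that of nuclear receptor corepressors (0.34) farthest above, and most members of every list are grey.

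Genes of the egg surface and of activation by sperm changed in part. The zona protein gene Zp3 had 103 to 262 CPM in Ctrl (median 134) and 36 to 111 CPM in hCG libraries (median 60.2). The ranges overlapped, and it fell by 1.19 ± 0.28 (adjusted p = 0.0199), a call lost without Ctrl 3 or hCG 1 (up to 0.0614). The call of Zp3 was also lost without the low-count filter (adjusted p = 0.135). Zp2 (0.05 ± 0.18) and Zp1 (-0.62 ± 0.28) were not called. The fusion partner gene Cd9 had 16.2 to 41.0 CPM in Ctrl (median 18.3) and 4.33 to 9.92 CPM in hCG libraries (median 7.84), without overlap (-1.60 ± 0.28, adjusted p = 0.00267). The receptor for sperm, Izumo1r, had 0.17 ± 0.23. Plat, the plasminogen activator whose stored messenger is a textbook case of translation started at maturation, had 1544 to 3283 CPM in Ctrl (median 2087) and 868 to 1611 CPM in hCG libraries (median 1053). Its groups overlapped at the edge, and it fell by 0.91 ± 0.18 (adjusted p = 0.00639). The secreted growth factor genes Gdf9 (-0.13 ± 0.15) and Bmp15 (-0.48 ± 0.14, adjusted p = 0.0565) were not called. Of 20 genes of zona, fusion and secretion 3 fell and 0 rose, and 5 fell with genes detected as a covariate.

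Calm2, which encodes the calcium sensor calmodulin, had 309 to 392 CPM in Ctrl (median 384) and 214 to 267 CPM in hCG libraries (median 236). It fell by 0.64 ± 0.12 without overlap (adjusted p = 0.003). The calcium release channel gene Itpr1 had 0.48 ± 0.19 (adjusted p = 0.167). Of 23 calcium and activation genes 1 fell (4.35%, against 2.67% of all genes) and 0 rose.

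Few genes of stored maternal factors were called. Of 41 genes of RNA storage and polyadenylation, the poly(A) polymerase gene Papola fell by 0.49 ± 0.13. Its call was lost in 9 of 12 fits without 1 library (up to 0.0989) and without the low-count filter. Cpeb1, which directs cytoplasmic polyadenylation, had -0.11 ± 0.15. Of 20 genes of the subcortical maternal complex and the Nlrp family, Nlrp4e rose by 0.67 ± 0.16, a call lost without Ctrl 5 or hCG 1 (up to 0.0506). Khdc3 fell by 1.5 ± 0.38, a call lost in 6 of those 12 fits (up to 0.115) and with limma-voom. Padi6 (0.18 ± 0.16), Nlrp5 (-0.45 ± 0.19) and Zar1 (-0.01 ± 0.19) were not called. At an unadjusted p under 0.05, 13 of the 41 and 10 of the 20 passed, and DESeq2 called 2 higher and 2 lower in each list. Of 21 maternal transcription factors and germ-cell regulators edgeR called 0 (7 at an unadjusted p under 0.05), limma-voom 0 and DESeq2 1, which was higher. Among these, Obox5 had 1436 to 1777 CPM in Ctrl (median 1522) and 1847 to 2164 CPM in hCG libraries (median 1919), which did not overlap, and the difference was 0.33 ± 0.10 (adjusted p = 0.0832).

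Genes that defend the germline genome against transposons moved both ways. Tex15, a partner of the piRNA pathway in the male germline, had 0.926 to 19.3 CPM in Ctrl (median 7.74) and 38.5 to 162 CPM in hCG libraries (median 73.1). It rose by 3.28 ± 0.49 without overlap (adjusted p = 0.000827). Tex19.2 had 6.32 to 21.9 CPM in Ctrl (median 11.9) and 24.2 to 86.1 CPM in hCG libraries (median 36.9), again without overlap, and rose by 2.04 ± 0.35 (adjusted p = 0.00198). Its paralog Tex19.1 was at 130 ± 30.4 and 139 ± 87.0 CPM (0.09 ± 0.28, adjusted p = 0.908). The nuclease gene Pld6, of piRNA processing, fell by 1.03 ± 0.22. In all, 2 of 23 rose and 1 fell (8.70% and 4.35%, against 1.33% and 2.67% of all genes). Of 36 histone, chaperone and remodeler genes only H3f3a was called, or 2.78%, against 2.67% of all genes called lower. This gene for the replacement histone H3.3 had 102 to 179 CPM in Ctrl (median 137) and 32.4 to 73.8 CPM in hCG libraries (median 60.6), without overlap (-1.34 ± 0.21, adjusted p = 0.000641). H3f3b, which encodes the same protein, had 3306 ± 679 and 2770 ± 549 CPM (-0.26 ± 0.15, adjusted p = 0.400).

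Lzts1, a regulator of cell division (chromosome 8, 69132659 to 69184249), had a small p and a large fall. It had 176 to 545 CPM in Ctrl (median 417) and 13.6 to 29.8 CPM in hCG libraries (median 24.6), with no overlap (-4.15 ± 0.27, adjusted p = 1.07e-08). Of its relatives, Lzts2 had 17.4 ± 7.80 and 9.02 ± 3.63 CPM (-0.93 ± 0.38, adjusted p = 0.180) and Lzts3 had 0 counts. Larger still was the fall of Trav7-6, a T cell receptor segment with similar copies, which had 934 counts over Ctrl and 6 over hCG libraries. Bst2, an antiviral membrane protein (-3.14 ± 0.43), the lipid kinase gene Dgkh (-2.78 ± 0.48) and Dpys, of pyrimidine breakdown (-2.34 ± 0.33), fell without overlap as well. Other falls were in the proton pump subunit gene Atp6v1g1 (-2.14 ± 0.25), the cargo receptor gene Cnih4 (-1.75 ± 0.20), the leptin receptor overlapping transcript Leprot (-1.81 ± 0.22), the DNA-binding regulator Fubp1 (-1.5 ± 0.19), the folding cofactor Pdcl3 (-1.43 ± 0.20) and the cationic amino acid transporter Slc7a2 (-1.12 ± 0.16), each without overlap. Abundant lower genes included the inner nuclear membrane gene Lbr (1295 ± 269 to 673 ± 205 CPM, -0.95 ± 0.19) and the transcription cofactor gene Sub1 (4104 ± 541 to 2684 ± 284 CPM, -0.61 ± 0.12). For Kantr, a long noncoding RNA (-2.01 ± 0.31), and for overlapping genes, the strand of the reads was not given in the sources used here, so reads of neighbours cannot be told apart.

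Called genes lay on every autosome and on chromosome X. Chromosome 8 held 8 called genes past 2 on the log2 scale, the highest number, with 26 of 499 tested genes called (5.21%, against 3.99% of all genes), and chromosome 4 held 6. On chromosome 14 the called share was 5.62% and on chromosome 12 it was 2.17%. Among other lists, edgeR called 0 of 29 genes of p53 response, apoptosis and DNA repair (7 at an unadjusted p under 0.05), and DESeq2 called 1 and limma-voom 0. Of 36 spliceosome genes and 25 cholesterol and lipid genes edgeR, DESeq2 and limma-voom called 0, with 5 and 2 at an unadjusted p under 0.05 in edgeR. The anti-apoptotic Bcl2l10 stood at 5809 ± 988 and 5815 ± 1158 CPM.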

How the data were processed

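The deposited table holds counts, whole numbers per gene symbol, for 12 oocyte libraries and 27016 symbols, of which 5439 had 0 counts throughout and 23 had been turned into dates and stayed unread. Per the submitters' processing notes, HTSeq 0.12.4, STAR 2.7.6a, Trim Galore 0.6.4, SAMtools 1.19.1, Bowtie2, TopHat and Trimmomatic 0.32 and the builds mm10 and GRCm38 were used in the series. Which of these made this table, and whether reads were counted by strand, is not given in the sources used here.

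Counts were tested with edgeR 4.0.16 in R 4.3.3: TMM factors, filterByExpr's standard low-count filter (10 counts in enough libraries, 15 summed) and a robust quasi-likelihood F test, two-sided, adjusted by Benjamini-Hochberg over 9565 genes with a threshold of 0.05. CPM are counts scaled to the library total after TMM. Errors are SD over 6 libraries for CPM. For log2 fold changes they are standard errors implied by the size of the change and its F statistic. The fit was tested on simulated data.

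Genes and the 44 lists were chosen with earlier results of these data known. Named genes were called genes of at least 5 CPM with an informative symbol: the 15 largest changes, 15 smallest p and 10 highest levels per direction, up to 5 called members per list (the 2 most abundant where 0 were called), and closest paralogs. Other members were named after their values were seen. Gene positions came from the supplied RefSeq table of GRCm38, which matched 96.7% of tested genes. Replicate numbers are shared between the groups, but nothing ties them to a shared animal or day, and correlations of same-numbered libraries ran from -0.188 to 0.208, so they were not treated as pairs. Alternatives used DESeq2 1.42.0, limma 3.58.1 (voom), other size factors and filters, equal depth, genes detected as a covariate, and libraries left out. A planned measure of protein length per library was not computed.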

Additional observations from a re-analysis of the deposited data

Results flagged for a closer look

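In 16 of 274 groups of 6 libraries looked at (5.84%), 1 library lay far from the other 5 by Dixon's ratio, about the 1 in 20 that chance gives. Ctrl 3 held 5 of these values, all high: Aurkb at 34.1 CPM (the others 12.9 to 20.2), Cd9 at 41.0 (16.2 to 24.7), Cfl1 at 139 (59.6 to 87.5), Tm2d1 at 368 (157 to 235) and Zp3 at 262 (103 to 158). Those genes were called lower in hCG, and Ctrl 3 was the deepest library, with 6924189 counts. Whether depth has a part in these values was not tested.

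In other Ctrl libraries, Mrpl22 was low in Ctrl 4 at 9.47 CPM (17.2 to 21.3), Calm2 was low in Ctrl 6 at 309 (368 to 392) and Sf3b1 was high in Ctrl 1 at 895 (787 to 823). Among hCG libraries, hCG 3 was high for Arsb at 47.5 CPM (11.7 to 24.1), Grb7 at 31.5 (10.3 to 16.7) and Zc3h6 at 565 (422 to 475). Tex15 was high in hCG 1 at 162 CPM (38.5 to 82.6), and Lzts2 was low there at 1.86 (8.99 to 11.4). Esr2 was high in hCG 2 at 81.1 CPM (60.5 to 64.1). In hCG 6, Mff stood at 209 CPM (104 to 136) and Sub1 at 3229 (2462 to 2730), both toward the Ctrl level.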

How the results depend on the processing

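The number of genes called depended on the tool and on single libraries. DESeq2 called 274 genes higher and 429 lower, among them 127 and 253 of the genes edgeR called. Without Ctrl 2 and Ctrl 4 271 were higher, and with genes detected as a covariate 216 were higher. When 1 library was left out, the number of higher genes ran from 70, lacking Ctrl 5, to 292, lacking Ctrl 4. The number of lower genes ran from 167, lacking Ctrl 3, to 365, lacking Ctrl 4. Without Ctrl 3, hCG 1 or hCG 4, 80, 80 and 78 were higher. The cause was not tested.

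The replicate number as a block gave 119 higher and 217 lower genes and ended the call of 17 named genes, Dnmt1 among them. In 2 of 6 cases a Ctrl library correlated best with the hCG library of its own number. Of 112 called named genes, 77 kept the call in every other setting that could be fitted, and 35 lost it in at least 1. No called named gene changed direction. Protein length per library was not run, nor was a thinned total count. Genes that missed the threshold are not shown to be alike between the groups.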

Other observations

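Other called genes lay outside the groups above. The estrogen receptor gene Esr2 had 41.2 ± 7.84 CPM in Ctrl and 65.1 ± 7.92 CPM in hCG eggs and rose by 0.66 ± 0.16 (edgeR, adjusted p = 0.0258), and every hCG library was above every Ctrl library. That call was lost in 5 of 12 fits without 1 library (up to 0.0754) and at equal depth. The imprinted receptor gene Igf2r, which carries lysosomal enzymes and clears Igf2, fell from 171 ± 37.5 to 87.7 ± 26.3 CPM without overlap (-0.97 ± 0.20, adjusted p = 0.00865), and it was the called member among 20 imprinted genes tested. The zinc exporter gene Slc30a4 rose by 1.03 ± 0.28, a call lost in 9 of the 12 fits without 1 library (up to 0.109) and at equal depth. It was 1 of 9 zinc genes tested (11.1%, against 1.33% of all genes called higher). The antioxidant genes Prdx1 (2022 ± 296 to 1259 ± 394 CPM) and Gclm (66.3 ± 38.3 to 29.4 ± 8.02 CPM) fell. They were 2 of 25 (8.00%, against 2.67% of all genes) with a list median of -0.26. Their calls were lost in 9 and 6 of the fits without 1 library (up to 0.0837 and 0.113). The call of Gclm was also lost with limma-voom and without the low-count filter. Ldhb, a lactate dehydrogenase subunit, fell from 1113 ± 282 to 710 ± 139 CPM and Sucla2, of the citrate cycle, rose from 56.5 ± 15.3 to 89.4 ± 13.9 CPM. Their calls were lost in 4 and 9 fits without 1 library (up to 0.0825 and 0.111), and that of Sucla2 also at equal depth.

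Ssr1, of the endoplasmic reticulum translocon, rose by 1.74 ± 0.28 and the lysosomal sulfatase gene Arsb by 1.83 ± 0.40. The adaptor gene Grb7 rose by 1.98 ± 0.39, the cullin adaptor gene Kbtbd7 by 0.81 ± 0.17 and Tmem72 by 1.36 ± 0.22, each without overlap between groups. The vesicle GTPase gene Rab3b fell by 1.99 ± 0.41, and Elobl, an egg gene of a repeated family whose copies can share reads, by 1.66 ± 0.23. The synaptic adhesion gene Nlgn1 rose by 4.45 ± 0.46 (23 counts summed over Ctrl, 555 over hCG), while its relative Nlgn3 had 214 and 208 counts and Nlgn2 had 0.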
